A study of Mus musculus with 59 samples.

Results

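KLS cells are the bone marrow fraction with c-Kit and Sca-1 on the surface and no lineage markers, and hold the haematopoietic stem cells and multipotent progenitors. Their gene expression 3 weeks after induced loss of Daxx (3 w.p.i., weeks post induction) was described in 6 libraries of the 59 samples of the study: 3 libraries labelled Daxx F/F Cre +/- (Daxx-KO) against 3 labelled Daxx +/+ Cre +/- (WT), over all genes of their table. All animals were of strain C57BL/6 and carried Mx1Cre, a recombinase under an interferon-responsive promoter that also acts outside blood cells, and all received pI:pC, a double-stranded RNA that induces interferon, so the WT controls share both the Cre and the interferon stimulus. The floxed Daxx line was made in C57BL/6N and the Mx1Cre line in C57BL/6J mice, and the labels give no age per animal. WT libraries are called WT 1, WT 2 and the unnumbered WT, whose column has an animal number that is in no title, so its replicate number is not known. Another 2 libraries, homozygous for floxed Daxx and floxed Pu.1 and with Cre (DKO), lack the myeloid and B lineage transcription factor Pu.1 as well and are given beside the main values. They share the WT libraries with the main comparison.

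Daxx is a chaperone of the histone variant H3.3 that works with Atrx to place H3.3 in heterochromatin, including at endogenous retroviruses (ERVs), which are kept silent there. Within the KLS fraction, cells move from long-term stem cells, marked by genes such as Mecom, Tek and Procr, towards multipotent progenitors that begin to express lymphoid genes (Flt3, Dntt, Il7r), myeloid genes (Csf3r, Mpo) or megakaryocyte and erythroid genes (Itga2b, Gata1). A sorted bulk library averages all of these, so fewer cells of one kind and less RNA per cell cannot be told apart.

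The 6 libraries held between 11384751 and 15336885 reads in genes, and values below are normalized counts as deposited by the authors. The unnumbered WT and Daxx-KO 2 stood apart. Of the genes tested, 94 were at least 4 times higher in the unnumbered WT than in the next library and 81 in Daxx-KO 2, against 3 to 23 in the other 4 libraries. The sort markers were present in every library, with Kit at 7782 to 16527 and Ly6a, which encodes Sca-1, at 183 to 444. Lineage markers that the sort should remove were low except for Itgam (CD11b), which was at 720.3 to 2592 and highest in the unnumbered WT. Main counts of several gene lists below are therefore also given without one or both of these libraries. Txnip and other genes that most cells use are listed at 0 in every library, so a 0 in every library says how the table lists a gene and is not read as a silent gene. In the DKO libraries, late neutrophil genes summed to 174044 and 140936, against at most 31618 in WT and 7022 in Daxx-KO libraries. Myeloid genes summed to 133526 and 133885 there, against at most 63026 and 23609. Whether this bears on the DKO levels given below was not tested.

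Daxx itself was lower in the library of each floxed animal. Daxx (chr17:33909414-33915590, GRCm38) had 82.6, 102 and 72.2 normalized counts in the Daxx-KO and 423, 467 and 505 in the WT libraries. The groups did not overlap, and the remaining level was 0.185 of that of WT (log2 fold change -2.44, SE 0.23, limma adjusted p = 0.00373). Per the paper, loxP sites flank only some of the Daxx exons, so reads of the other exons can remain in these values per gene. The remaining level is therefore no measure of intact Daxx or of undeleted cells. Of 16 chaperone and heterochromatin genes tested, Daxx alone passed the test, with a list median of 0.08. Atrx had 8416, 10946 and 7894 in Daxx-KO against 9431, 10299 and 8521 in WT libraries (log2 fold change -0.06, adjusted p = 0.921).

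In KLS cells 3 weeks after Daxx loss, 39 of the 15200 genes tested passed an adjusted p of 0.05 in limma, 0.257% of those tested. Of these 28 were higher in Daxx-KO (0.184%) and 11 lower (0.0724%). The rises included lymphoid genes (Dntt, Ccr9, Il12a), the netrin-family gene Ntng1, the receptor genes Gfra1 and Sorcs2, an immunoglobulin light chain segment (Igkv1-110) and Camk2b. The falls included Daxx, zinc finger and non-coding genes of one stretch of chromosome 4, Zfp951, and the platelet integrin gene Itga2b. An unadjusted p under 0.05 was seen for 903 genes higher (5.94%) and 874 lower (5.75%), 11.7% in all. Groups without overlap, with all 3 Daxx-KO libraries on one side of all WT libraries, were seen for 1378 genes higher (9.07%) and 1393 lower (9.16%). By type, 33 of the 39 were protein coding, 4 were lincRNAs, 1 was a processed transcript and 1 an immunoglobulin V segment. Without the unnumbered WT the number called was 137, without Daxx-KO 2 it was 14, without Daxx-KO 1 or WT 1 it was 8, without WT 2 it was 13 and without Daxx-KO 3 it was 25. Without both the unnumbered WT and Daxx-KO 2, a choice made after seeing the data, it was 124, and 31 of the 39 genes were among them. On the recovered reads, edgeR called 30 genes and DESeq2 342.

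Gene lists for cell types and pathways were read beside these calls. They were chosen with earlier results of these data known, so their counts and medians describe these libraries and are no independent test. Where limma called no member of a list below, edgeR called none either. DESeq2 called 5 B lineage, 2 cell cycle, 1 sensing, 1 p53 target and 1 T and natural killer gene higher in Daxx-KO, and 1 stem cell, 1 myeloid, 1 Hox-related and 1 mast cell and basophil gene and the sort marker Kit lower. It called none of the plasma cell, late neutrophil, macrophage, interferon-stimulated, immediate early or stromal genes. The fits with libraries left out have their own share over all genes. Without the unnumbered WT, 1164 of 15168 genes were higher and 893 lower at an unadjusted p under 0.05 in limma. Without Daxx-KO 2 these were 529 and 580 of 15217, and without both libraries 889 and 781 of 15203.

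Of 16 lymphoid-priming genes tested from a list of 18, 3 rose, none fell, and 11 had an unadjusted p under 0.05, all higher in Daxx-KO. In 11 of the 16 the Daxx-KO libraries were all above WT, where 9.07% of all genes tested were. The median log2 fold change of the list was 0.96 against 0 over all genes tested. Rag1 and Rag2, which encode the recombinase of antigen receptor genes, are listed at 0 in every library. The 3 genes that rose were Dntt, Ccr9 and Il12a.

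Dntt encodes terminal transferase, which adds bases at the joints of rearranging receptor genes and is an early lymphoid marker. It had 10360.5, 18887 and 6767 normalized counts in Daxx-KO and 1761, 2314 and 1409 in WT libraries. All 3 Daxx-KO libraries were above all WT libraries, with Daxx-KO 2 highest (6.13-fold, log2 fold change 2.62, SE 0.39, limma adjusted p = 0.0294). Without Daxx-KO 2 the log2 fold change was 2.22 and the adjusted p was 0.0858. In the DKO libraries, Dntt was at 457 and 1094, below every WT library.

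Ccr9, the receptor for the thymic and gut chemokine CCL25, had 246, 264 and 189 in Daxx-KO against 13, 25.6 and 6 in WT libraries. The Daxx-KO libraries lay close together and far above WT (16.8-fold, SE 0.55 on the log2 scale, adjusted p = 0.0209). The annotated span of Ccr9 overlaps several other genes. Il12a encodes the p35 subunit shared by interleukin-12 and interleukin-35. It had 1234, 1002 and 1003 in Daxx-KO against 383, 452 and 393 in WT libraries, the narrowest spread of the 3 genes (2.63-fold, log2 fold change 1.39, SE 0.15, adjusted p = 0.00683). The DKO libraries held 342 and 359 of Il12a, below every WT library.

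The sequences before the starts of these 3 genes are shown because they rose together in the same cells. Each is the 250 bases upstream of the RefSeq start (GRCm38.p6, plus strand, 5′ to 3′), and capitals mark each E box, CANNTG, the element read by basic helix-loop-helix factors, among them the E proteins of lymphoid progenitors. The windows are chr3:68690394-68690643 and chr3:68691174-68691423 for the 2 starts of Il12a, chr9:123766961-123767210 for Ccr9 and chr19:41029025-41029274 for Dntt.
Il12a, first start: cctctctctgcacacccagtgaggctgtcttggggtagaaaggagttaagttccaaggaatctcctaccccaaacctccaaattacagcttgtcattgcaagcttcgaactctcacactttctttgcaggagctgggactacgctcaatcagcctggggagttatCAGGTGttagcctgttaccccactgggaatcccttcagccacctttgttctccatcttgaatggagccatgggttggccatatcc
Il12a, second start: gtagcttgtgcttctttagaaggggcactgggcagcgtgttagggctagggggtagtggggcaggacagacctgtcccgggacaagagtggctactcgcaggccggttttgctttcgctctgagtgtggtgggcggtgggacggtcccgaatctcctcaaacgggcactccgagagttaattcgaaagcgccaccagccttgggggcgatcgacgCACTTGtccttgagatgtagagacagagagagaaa
Ccr9: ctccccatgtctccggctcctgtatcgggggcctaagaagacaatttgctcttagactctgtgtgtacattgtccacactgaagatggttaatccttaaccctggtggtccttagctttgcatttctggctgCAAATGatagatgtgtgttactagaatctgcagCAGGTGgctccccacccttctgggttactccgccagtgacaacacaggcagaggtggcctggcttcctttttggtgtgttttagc
Dntt: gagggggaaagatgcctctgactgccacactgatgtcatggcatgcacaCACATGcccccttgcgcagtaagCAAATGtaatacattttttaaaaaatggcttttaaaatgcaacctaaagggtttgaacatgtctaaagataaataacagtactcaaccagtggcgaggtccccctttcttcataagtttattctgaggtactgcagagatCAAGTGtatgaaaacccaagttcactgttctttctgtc

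E boxes began 85 and 35 bases before the starts of Il12a, 118 and 85 bases before that of Ccr9, and 201, 178 and 38 bases before that of Dntt. The element is common: CANNTG was searched on both strands in the 250 bases before each start. It was in 66.2% of 32851 such windows, in 62.8% of tested genes with a window and in 22 of the 27 called genes with one. CAGGTG, a form contained in CANNTG, was in 17.2% of windows, in 18.7% of tested genes with a window and in 13 of the 27 called genes. It was in the first Il12a window and the Ccr9 window. The difference in shares was not tested. GAGGAA, the core read by Pu.1 and its relatives, was in 23.3% of windows, in 26.5% of tested genes with a window, in 10 of the 27 called genes and in none of the windows printed here. These matches describe letters, not bound sites.

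Other members of the lymphoid list were above WT in all 3 Daxx-KO libraries without passing the test. Notch1, the receptor that starts T lineage choice, had 4327, 4828 and 3329 in Daxx-KO against 1735, 2304 and 1824 in WT libraries (adjusted p = 0.0509). Lax1, an adaptor of lymphocyte signalling, had 1074, 1337 and 917 against 501, 567 and 654 (adjusted p = 0.0683). Flt3, the cytokine receptor of lymphoid-primed progenitors, had 7765, 6176 and 5664 against 2761, 3824 and 3090.3 (adjusted p = 0.14). For Il7r, the interleukin-7 receptor, Daxx-KO 2 was far above its group, with 549, 1568 and 249 against 84.3, 81.2 and 82 (adjusted p = 0.178). Without Daxx-KO 2, 1 lymphoid-priming gene was called and the median was 0.84, without the unnumbered WT 5 were called, and without both 5 were called and the median was 0.9. Of the 16, edgeR called 2 and DESeq2 9.

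**Figure D1:**
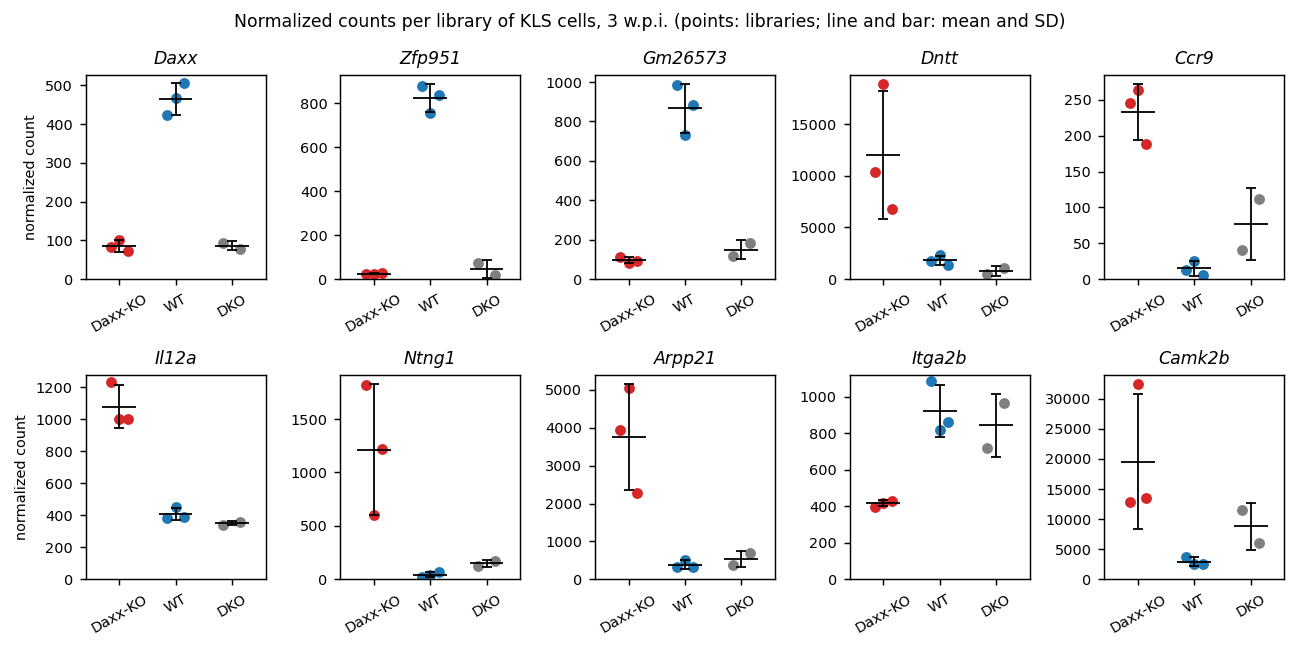
Normalized counts (y axes, each from 0) of 10 genes called in KLS cells 3 w.p.i., 1 point per library of Daxx-KO, WT and DKO, with a line at the mean and bars of 1 SD. Daxx-KO and WT points do not overlap in any panel, and the DKO libraries lie at or below WT for Il12a and Dntt but near Daxx-KO for Daxx, Zfp951 and Gm26573.

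Genes of committed B cells were not called over all libraries, and their levels were unequal among the Daxx-KO libraries. Of 21 B lineage genes tested, 13 had an unadjusted p under 0.05, all higher in Daxx-KO, and the list median was 2.41. Ebf1, the factor that commits progenitors to the B lineage, had 3512, 23895 and 1063 in Daxx-KO against 218, 519 and 221 in WT libraries (log2 fold change 3.93, adjusted p = 0.18). Pax5, which keeps that commitment, had 384, 4998 and 80.6 against 29.2, 72.4 and 30 (adjusted p = 0.34). Daxx-KO 2 was the highest library for both, yet the other Daxx-KO libraries were also above WT. Blnk, an adaptor of the pre-B cell receptor, had 595, 2964 and 719 against 125, 177 and 448 (adjusted p = 0.209). Without Daxx-KO 2, the B lineage median was 1.51 and 6 genes had an unadjusted p under 0.05, with none called. Without the unnumbered WT 3 were called and the median was 3.03, and without both libraries 4 were called and it was 1.89. Lef1, a Wnt pathway factor of lymphocytes, had 223, 3010.2 and 169 against 23.8, 34.4 and 50 (adjusted p = 0.171).

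Plasma cell genes were high in all Daxx-KO libraries and in 1 WT library. The summed level of 12 such genes was 57714, 142559 and 152413 in Daxx-KO libraries, 9662 in WT 1, 4706 in WT 2 and 128306 in the unnumbered WT. None of the 11 tested was called, 7 had an unadjusted p under 0.05, and the groups overlapped for all 11. Their median was 2.45 in limma, and in edgeR and DESeq2 it was 1.3 and 1.28 with no gene at an unadjusted p under 0.05. Without Daxx-KO 2 only 2 genes had such a p, without the unnumbered WT 9 were called and the median was 3.61, and without both 5 were called. Ighm, the heavy chain of IgM, carried most of the sum, with 51095, 102386 and 137691 in Daxx-KO against 7163, 2669 and 110066 in WT libraries. Mzb1, an antibody secretion chaperone, had 148, 465 and 224 against 2.16, 1.77 and 310.1. The DKO libraries had a summed level of 191009 and 211724.

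The light chain segment Igkv1-110 stands beside these genes. It had 182, 481 and 239 in Daxx-KO, 0, 0 and 1 in WT libraries, and 189 and 561 in DKO libraries. WT held 1 read in all, and the ratio of reads scaled by library size was 957 with an exact 95% interval of 171 to 37857 that covers counting error only. The unnumbered WT, which had plasma cell genes at the level of Daxx-KO, had 1 read. The part of plasma cells in this result was not tested, and light chain segments are alike enough that the counting of reads among them is uncertain. Another segment, Igkv12-46, had 177, 122 and 7447 in Daxx-KO against 1.08, 17.7 and 20 in WT libraries (adjusted p = 0.265).

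**Figure D2:**
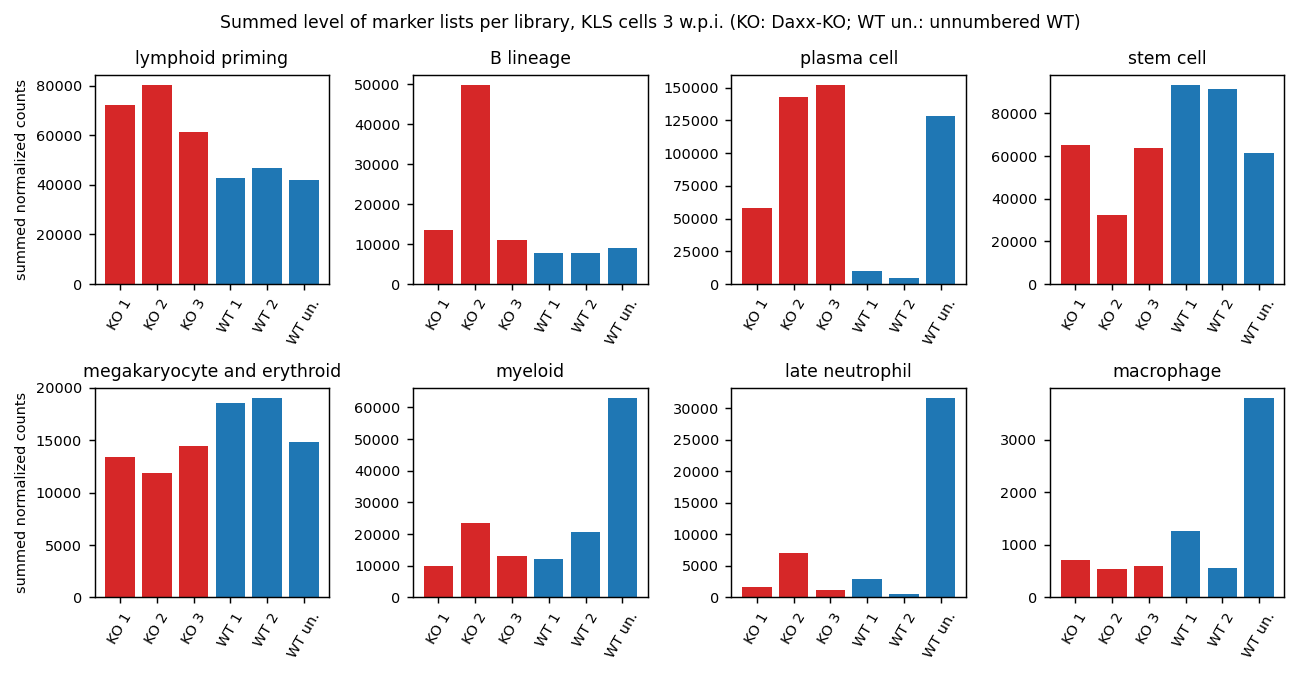
Summed normalized counts (y axes, each from 0) of 8 gene lists in the 3 Daxx-KO (red) and 3 WT (blue) libraries of KLS cells 3 w.p.i. The lymphoid-priming bars are higher in all Daxx-KO libraries, B lineage genes are led by Daxx-KO 2 at 49926, and late neutrophil, myeloid and macrophage genes are led by the unnumbered WT.

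Ntng1, Gfra1, Sorcs2 and Kcng1 were also among the largest rises. Ntng1, a netrin-family adhesion protein, had 1820.5, 598 and 1217 in Daxx-KO against 21.6, 40.6 and 71 in WT libraries (27-fold, log2 fold change 4.75, SE 0.48, adjusted p = 0.00373). Gfra1, the receptor subunit for the neurotrophic factor GDNF, had 1522, 2651 and 328 against 61.6, 23.8 and 52 (adjusted p = 0.0251). Even the lowest Daxx-KO library was several times above the highest WT library for both. Sorcs2, a sortilin-family receptor, had 1465, 2192 and 1154 against 392, 197 and 485 (4.61-fold, adjusted p = 0.0301). Kcng1, a modifier subunit of voltage-gated potassium channels, had 649, 905 and 439 against 80, 158 and 95, and was at 8.62 and 13.5 in the DKO libraries (adjusted p = 0.0251).

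Arpp21, an RNA-binding phosphoprotein whose gene hosts a microRNA, had 3944, 5046 and 2279.6 in Daxx-KO against 336, 519.9 and 321 in WT libraries (9.29-fold, SE 0.32 on the log2 scale, adjusted p = 0.00373). Emp1, a membrane protein of the PMP22 family, had 456, 613 and 340 against 18.4, 39.7 and 37 (14.7-fold, adjusted p = 0.00373). Camk2b, a calmodulin-dependent kinase subunit, was the most abundant gene that rose, with 12782, 32447 and 13452 against 3793, 2525 and 2490 (6.16-fold, adjusted p = 0.0244). For these genes the groups were clearly apart, and Daxx-KO 2 was the highest library for each. Ntng1, Emp1, Arpp21 and Igkv1-110 were called under every one of the 19 alternative settings.

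Some further rises were of genes with few reads in WT. Gm35572, a lincRNA gene on chromosome 8, had 353, 173 and 264 in Daxx-KO against 3.24, 15.9 and 1 in WT libraries (48.5-fold, adjusted p = 0.0178). Strc, which encodes stereocilin of the inner ear, had 52, 200.1 and 94.2 against 4.32, 7.06 and 3 (18.1-fold, adjusted p = 0.0244). Rassf9, an endosomal trafficking protein, had 130.1, 50.2 and 137 against 2.16, 1.77 and 2 (adjusted p = 0.0332). These 3 genes had WT values of 1 to 15.9. Gm30948, a lincRNA gene that overlaps the immunoglobulin heavy chain segment Ighv1-57, had 747, 829 and 424 against 94, 60.9 and 41 (adjusted p = 0.0109). Rasal1, a GTPase-activating protein for Ras, had 235, 249 and 182 against 30.3, 43.3 and 41 (adjusted p = 0.0191).

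Called genes outside the naming rule are named here after their values were seen. Dlx3, a homeobox gene of skin and bone, and Gm6093, a lincRNA gene, are at 0 in all WT libraries and were at least 40.4-fold and 42.4-fold higher in Daxx-KO against a floor of 3 reads over the WT group, and each was called in 8 of 18 alternative settings. Without WT reads, Dlx3 and Gm6093 passed the filter on the mean only through other libraries. They could therefore only be called higher, and their direction carries no information. Ctr9, a subunit of the PAF complex that travels with RNA polymerase II, had 5506, 6654 and 3994 against 1496, 1819 and 1396 (3.38-fold, adjusted p = 0.00689). Laptm4b, a lysosomal membrane protein, had 1146, 845 and 978 against 350.2, 354 and 263 (3.07-fold, adjusted p = 0.0094). The 7 others were Msrb3, Tbxa2r, Ankrd6, Cdk5rap1, Plekha7, Arhgef3 and Frmd6, with rises between 1.67-fold for Frmd6 and 4.46-fold for Ankrd6.

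Among the falls, those of zinc finger and non-coding genes were the steepest. Zfp951 (chr5:104813169-104860070), a zinc finger gene, had 24.9, 22.4 and 26.2 in Daxx-KO against 879, 756 and 839 in WT libraries (log2 fold change -5.02, SE 0.47, adjusted p = 0.00373). Gm26573 (chr4:146153456-147024959, a lincRNA gene) had 114, 82.5 and 91 against 983, 732 and 883, the smallest adjusted p of the falls (-3.16, SE 0.24, adjusted p = 0.00107). Gm13212 (chr4:145585166-145625345, protein coding) had 30.5, 26 and 69 against 351, 270.1 and 340.1 (-3.03, adjusted p = 0.0281). The libraries within each group were close for all 3 genes, and the DKO libraries were also far below WT. Gm21989, a transcript of chromosome 12, had 20.4, 5.38 and 8.37 against 203, 256 and 198 (-4.33, adjusted p = 0.0281). Reads of Gm26573 cannot be told from those of genes inside its span, because the use of strand in counting was not given in the sources used here.

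Gm26573 and Gm13212 lie in the same cluster of zinc finger genes on chromosome 4. In chr4:145000000-148000000, the span of both genes widened to whole megabases after the values were seen, 23 genes were tested, 2 were called, and 10 had an unadjusted p under 0.05, all 10 lower in Daxx-KO, with a median log2 fold change of -0.89. Zfp984 had 523, 472 and 579 against 1226, 772 and 1053 (adjusted p = 0.093). Zfp979 had 28.3, 8.97 and 37.7 against 149, 139 and 96 (adjusted p = 0.268). A stretch of chromosome that came with the floxed line and Daxx loss cannot be told apart in this design. Of 4 genes used to compare the substrains, Nnt and Entpd4 are listed at 0 in every library and cannot be read for this, and Wdfy1 and Ide were not called.

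The other falls were of moderate size. Clec2d, a ligand of an inhibitory receptor on natural killer cells, had 429, 702 and 609.9 in Daxx-KO against 1784, 2120.3 and 1536 in WT libraries (3.16-fold lower, log2 fold change -1.66, adjusted p = 0.0102). Apoe, the lipid carrier apolipoprotein E, had 974, 1354 and 1106 against 2662, 2250 and 2586 (-1.14, adjusted p = 0.0209). In the DKO libraries, Clec2d was at the WT level, at 2189 and 1972, and Apoe at the Daxx-KO level, at 941 and 1119. Dach1, a transcriptional cofactor of progenitors, had 6507, 4273 and 6425 against 13720.1, 11325 and 11873 (-1.12, adjusted p = 0.0397), a call that held in 9 of 19 alternative settings. Cables1, a cyclin-dependent kinase adaptor, had 868, 746 and 777 against 1514, 1504 and 1398 (-0.89, adjusted p = 0.0251). Fhdc1, a formin-family protein, had 92.8, 90.6 and 146 against 618, 335 and 327 (-1.92, adjusted p = 0.0294). Each of these genes had all Daxx-KO libraries below all WT libraries. The 4 abundant genes named by the rule that did not pass the test had their groups apart in the same direction: Afdn, Myo1d, B4galt6 and Ncam1, with log2 fold changes of -1.45 to -1.49.

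Megakaryocyte and erythroid genes were mostly lower, with 1 of 21 called. Itga2b, the integrin subunit CD41 of megakaryocytes and platelets, had 398, 419.9 and 432 in Daxx-KO against 1086, 817 and 864 in WT libraries (log2 fold change -1.13, SE 0.17, adjusted p = 0.0281). This call held in 12 of 19 alternative settings. Of the 21, 10 had an unadjusted p under 0.05, all lower, 19 had a fold change below 0, and the median was -1.19. Without Daxx-KO 2 none was called and the median was -1.14. Without the unnumbered WT 2 were called, and without both libraries 1 was called, with a median of -1.18 in each. Gata1, the factor of both lineages, had 58.8, 97.8 and 41.8 against 132, 178 and 158 (adjusted p = 0.253). Pf4, the platelet factor 4 gene, had 7.92, 17.9 and 14.6 against 51.9, 63.6 and 78 (adjusted p = 0.247). The groups of both were apart. The beta-globin gene Hbb-bs was lower in each Daxx-KO library than in any WT library, with 11.3, 3.59 and 1.05 against 106, 15 and 138 (adjusted p = 0.242).

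Stem cell genes had a median log2 fold change of -0.58, and none of 19 tested was called. An unadjusted p under 0.05 was seen for 7, all lower, and 18 of 19 were below 0. Tek, the angiopoietin receptor of quiescent stem cells, had 415, 403 and 654 in Daxx-KO against 1041, 937 and 713 in WT libraries (adjusted p = 0.213). Tal1, a stem and erythroid factor, had 1242, 1134 and 1326 against 1982, 2057 and 1455 (adjusted p = 0.247). The unnumbered WT was the lowest WT library for both. Mecom, the Evi1 locus of long-term stem cells, had 20644, 8211 and 18954 against 28878, 27979 and 17156, and its groups overlapped through the unnumbered WT (adjusted p = 0.456). Without the unnumbered WT, 1 stem cell gene was called, 14 had an unadjusted p under 0.05, and the median was -0.84. Without Daxx-KO 2, none was called, 2 had such a p, and the median was -0.33, and without both libraries 1 was called, 10 had such a p, and it was -0.56. Of 7 Hox-related genes none was called, and 2 had an unadjusted p under 0.05, both lower. Their median was -0.67, and 1 was called lower without the unnumbered WT, also with Daxx-KO 2 left out. The Hox cofactor Pbx3 had 996, 574 and 1034 against 2518, 2496 and 1438 (log2 fold change -1.31, adjusted p = 0.112). Hoxa3, Hoxa4, Hoxa5, Hoxa6 and Hoxb5 are listed at 0 in every library. Kit itself had 10394, 7782 and 10143 against 16527, 15072 and 11867 (adjusted p = 0.246).

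Among the Daxx-KO and WT libraries, myeloid and late neutrophil genes were highest in the unnumbered WT. Of 22 myeloid genes none was called, 2 were lower at an unadjusted p under 0.05 and the median was -0.71, and without the unnumbered WT the median was -0.02 and 1 gene was called higher. Without Daxx-KO 2 the median was -0.97 with 4 lower at that level, and without both libraries it was -0.3, with 16 of 22 below 0, 4 lower at that level and 1 called higher. None of 12 late neutrophil genes was called or had an unadjusted p under 0.05. They had a summed level of 31618 in the unnumbered WT and of 584 to 7022 in the other 5 libraries, and the median turned from -0.78 to 0.8 without it. Macrophage genes were likewise highest there, with 3798 against 539 to 1269.9 in the other Daxx-KO and WT libraries. The DKO libraries had 8710.2 and 7156. Of 8 macrophage genes tested none was called and 2 were lower at an unadjusted p under 0.05. Csf3r, the G-CSF receptor, did not follow this library: it had 1152, 1333 and 1403 in Daxx-KO against 2149.6, 2171 and 2355 in WT libraries (log2 fold change -0.78, adjusted p = 0.0553).

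Interferon-stimulated genes had a median of 0.01. None of 50 was called, 1 had an unadjusted p under 0.05 in the higher and 2 in the lower direction. Irf7, the interferon-inducible factor, had 218, 448 and 212 in Daxx-KO against 212, 297 and 129 in WT libraries (log2 fold change 0.45, SE 0.37, adjusted p = 0.669). Without both libraries that stand apart the median was -0.37, with 13 lower at an unadjusted p under 0.05 and 1 called lower. Of 17 nucleic acid sensing genes none was called, 3 were higher and 1 lower at that level. Tmem173, which encodes the DNA sensing adaptor STING, had 1016, 1237 and 887 against 750, 616 and 622 (adjusted p = 0.191). Ikbke, a kinase of the interferon response, had 514, 481 and 454 against 608, 655 and 796 (adjusted p = 0.295).

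The summed level of cell cycle genes was 128682 in Daxx-KO 2 and 59165 to 80993 in the other 5 Daxx-KO and WT libraries. Of 30, none was called, 4 had an unadjusted p under 0.05, all higher, and the median was 0.53. Without Daxx-KO 2 it was 0.23 with 2 genes higher and 1 lower at that level, without the unnumbered WT 0.68 with 16 higher and 1 lower, and without both 0.39 with 10 higher and 2 lower, and none was called in any of these. Ccnd2, the D-type cyclin of progenitors, had 4527, 5735 and 4581 in Daxx-KO against 3203, 3401 and 3151 in WT libraries (log2 fold change 0.6, adjusted p = 0.148). Ccnd1 had 645, 572 and 593 against 363, 297 and 231 (adjusted p = 0.167). The groups of both cyclins were apart. Mki67, the marker of cycling cells, had 9959.9, 33269 and 10204 against 5840.4, 11437 and 15799.6, and its groups overlapped (adjusted p = 0.718). Cdkn1a, the p53-induced cell cycle inhibitor p21, had 144, 311 and 167 against 64.8, 45.9 and 37 (log2 fold change 2.01, SE 0.4, adjusted p = 0.105). Of 16 p53 target genes none was called, with 5 higher and 1 lower at an unadjusted p under 0.05.

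Of 15 genes of glucose production and use, Fbp1 was called. The call held in 11 of 19 alternative settings. Fbp1, the fructose bisphosphatase of gluconeogenesis, had 299, 359.8 and 402 in Daxx-KO against 139, 102 and 92 in WT libraries, and 498 and 351 in DKO libraries (3.19-fold, log2 fold change 1.67, SE 0.24, adjusted p = 0.0251). It was above WT in every library that lacked Daxx. The list median was 0.12. None of 15 immediate early genes, which respond to handling of cells, was called, 1 was higher and 2 were lower at an unadjusted p under 0.05, and their median was -0.03, with 1 called higher without the unnumbered WT, also with Daxx-KO 2 left out. Among markers of other cell types, none of 10 T and natural killer genes, 6 mast cell and basophil genes or 8 stromal genes was called, with medians of 1.67, -0.98 and -0.01. The 6 dendritic cell genes held 1 called gene, Ccr9, and had a median of 0.77. In 4 of them the Daxx-KO libraries were all above WT, where 9.07% of all genes tested were, and DESeq2 called 3. Ccr9 and Flt3 are members of both this list and the lymphoid-priming list. At an unadjusted p under 0.05, 4 T and natural killer genes and 3 dendritic cell genes were higher, and 1 mast cell and 1 stromal gene lower. Lck, the T cell kinase, had 365, 502 and 292 against 126, 128 and 134 (adjusted p = 0.196).

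The DKO libraries share the WT libraries with the comparison above, so their levels are given only side by side. Arpp21 had 383 and 683 in DKO libraries, Emp1 47.9 and 61.7, and Ntng1 126 and 172, each far below the lowest Daxx-KO library. Camk2b had 11514 and 6075, between the WT and Daxx-KO libraries, and Ctr9 had 1809 and 1498, within the WT range. Gm35572 had 38.3 and 28.9, above WT and below Daxx-KO. Of the falls, Gm21989 had 22 and 4.82 and Gm13212 25.9 and 61.7, far below WT, while Itga2b had 722 and 965, above all Daxx-KO libraries.

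Repeats were counted separately, and their scale is CPM, relative to all repeat counts of a library. Of 815 subfamilies tested 5 passed edgeR's quasi-likelihood test with Benjamini-Hochberg adjustment, 0.613% of those tested, all 5 ERVs and all higher in Daxx-KO. IAPLTR3-int, an internal part of the intracisternal A particle (IAP) family, had 390.3, 405 and 338 in Daxx-KO against 84, 71.4 and 103 in WT libraries (log2 fold change 2.17, SE 0.15, adjusted p = 0.000114). RLTR3_Mm, a long terminal repeat, had 603, 1001 and 817 against 117, 161 and 184 (2.43, adjusted p = 0.000902). MMTV-int, the internal part of mouse mammary tumour virus elements, had 2526, 5199 and 3368 against 273, 506 and 472 (3.2, adjusted p = 0.0011). The groups were several-fold apart for all 3. IAP1-MM_I-int had 121, 131 and 139 against 56.6, 41.6 and 40.2 (1.54, adjusted p = 0.0012), and IAPEz-int, the most abundant of the 5, had 10341, 16651 and 13763 against 6549, 7549 and 7412 (0.97, adjusted p = 0.037).

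Across IAP subfamilies the shift was modest. Of 24 tested, 3 were called and 18 were above 0, with a median of 0.25, against 403 of 815 above 0 and a median of 0 for all subfamilies. At an unadjusted p under 0.05, 9 IAP subfamilies were higher and 1 was lower, where 65 of all subfamilies, 7.98%, had such a p. No family of 23 was called by edgeR and 1 by DESeq2, and 2 families, 8.7%, had an unadjusted p under 0.05. The summed IAP family had 15016, 21655 and 18309 in Daxx-KO against 10326, 11336 and 11076 in WT libraries (1.7-fold, log2 fold change 0.77, SE 0.16, adjusted p = 0.0805). The ERV1 family had 27141, 69074 and 27426 against 19138, 21559.9 and 19118, with Daxx-KO 2 alone far above the rest (1.07, adjusted p = 0.372). LINE elements of the L1 family had 202600.4, 183279.7 and 198776 against 206121, 220768 and 196468 and overlapped (-0.08, adjusted p = 0.573).

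Granulocyte-monocyte progenitors (GMPs) from the animals with the same numbers at 3 w.p.i., in a table normalized separately, carried most of the same differences. Since they came from the same animals, they are no further replicates. Of 25 KLS rises with a mean of at least 10 in GMPs, 21 had all Daxx-KO GMP libraries above all WT GMP libraries and none the reverse, where 4.64% of all GMP genes were higher without overlap. Rises below this cut were left out. A rise with few reads in WT GMPs can pass the cut only through higher values in other libraries. The direction of such a gene is therefore partly set by the cut. Of the 11 falls, 8 were lower without overlap, where 3.46% of GMP genes were. Dntt had 1019.5, 2042 and 1139.6 in Daxx-KO against 9.35, 42.4 and 13.1 in WT GMPs. Its groups were further apart than in KLS cells, at a lower level. For Zfp951 the mean was 4.59 in Daxx-KO against 280 in WT GMPs, and for Camk2b it was 9576 and 2912. Ccr9 was among the 4 rises whose GMP groups overlapped, with means of 41.1 and 9.07.

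KLS cells of another experiment, whose labels give no time after induction, were 2 Daxx-KO against 2 WT libraries of uneven depth. The paper also sequenced KLS cells sorted from transplanted animals, and the titles here do not say whether these are those cells. Of the 25 rises with a mean of at least 10 there, 9 were higher in both Daxx-KO libraries, 13 were lower in both and 3 overlapped, where 32.9% and 29.8% of all genes were higher and lower without overlap. Dntt and Il12a were among those that went the other way and Ccr9 was not, with Dntt at 10.9 and 2.12 in Daxx-KO against 1072 and 2182 in WT libraries. Of the falls, 10 of 11 were lower there and Apoe was higher. Ctr9, Laptm4b, Gm35572, Msrb3, Strc, Camk2b, Fbp1 and Cdk5rap1 were higher without overlap in KLS cells 3 w.p.i., GMPs and these cells. Gm26573, Zfp951, Daxx, Clec2d, Cables1, Gm21989, Itga2b and Gm13212 were lower in all of them.

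**Figure D3:**
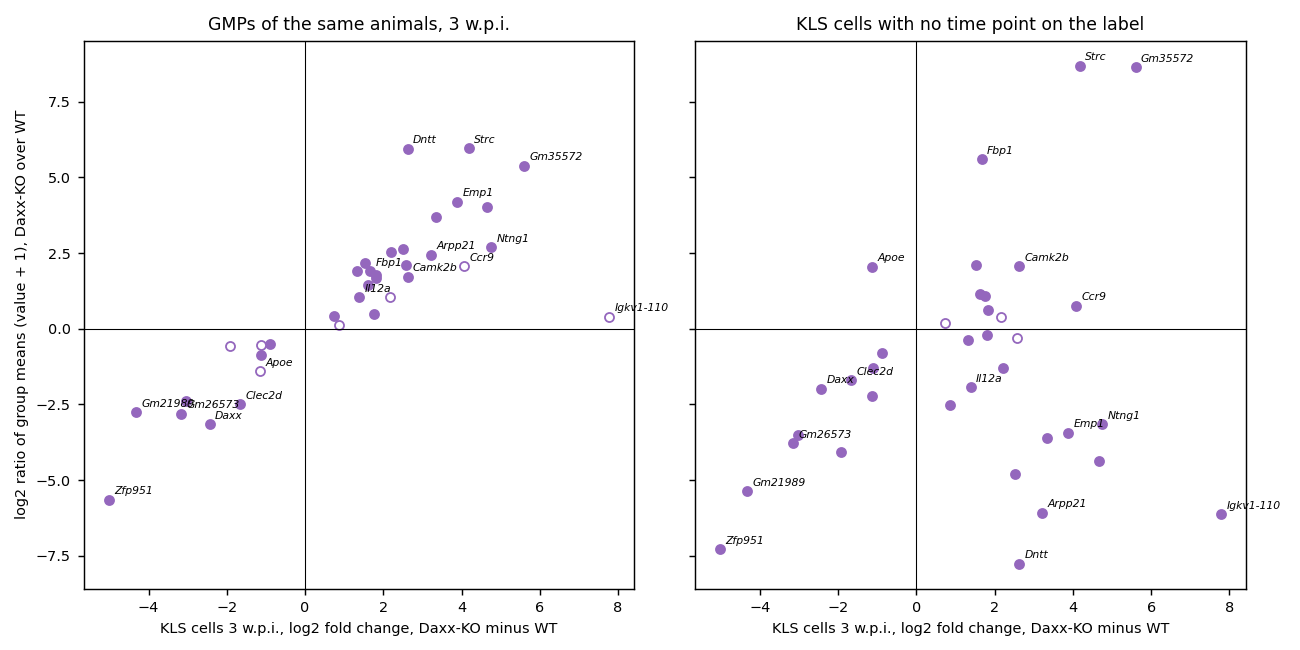
Genes called in KLS cells 3 w.p.i., with their log2 fold change there (x axis) against the log2 ratio of group means with 1 added (y axis) in GMPs of the same animals (left) and in KLS cells with no time point on the label (right), for genes with a mean of at least 10 there. Filled circles mark groups without overlap and open circles groups that overlap. In GMPs the points keep their sign, while in the other KLS cells Dntt, Arpp21 and Igkv1-110 lie below 0.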

How the data were processed

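RNA was read from KLS cells sorted from bone marrow. The labels name Trizol and the Ovation SoLo kit, whereas the methods name other kits for steady-state cells, so the kit is not settled. Per the submitters' processing notes, CASAVA 1.8.4, cutadapt 1.13, STAR 2.5.3, DESeq2 1.16.1 and mm10 were used. The counter and its use of strand were not given in the sources used here, so overlapping genes are uncertain.

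The gene values are a normalized signal deposited by the authors, namely counts divided by a size factor per library, without gene length. Dividing by the smallest step gave whole reads for 100% of values within 0.01. Repeat values are raw counts deposited by the authors, from which CPM relative to all repeat counts were computed. No per-sample depth beyond these totals was used: gene reads were 11384751, 15336885 and 12207621 for the Daxx-KO libraries, 12265167, 14920351 and 13273879 for WT, 15812520 and 14157035 for DKO, and repeat counts 2966117 to 4058838.

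Groups came from the labels. The unnumbered WT column is a WT library by the control ending of its name in the repeat table. The main test was limma 3.58.1 (trend, R 4.3.3) on log2(value + 1) for the 15200 of 51810 genes with a mean of at least 10 over the 8 libraries of Daxx-KO, WT and DKO in one fit, two-sided, with Benjamini-Hochberg adjustment at 0.05. Fold changes are on that log2 scale and understate low genes. Repeats were tested with edgeR 4.0.16 (quasi-likelihood, TMM) in the 6 libraries, and DESeq2 1.42.0 was an alternative. An adjusted p without a named tool is limma's for genes and edgeR's for repeats. Each column carries a separate animal number, and the replicate numbers come from the titles. The animal number of the unnumbered WT is in no title, so this library has no replicate number. GMPs and the other KLS cells were described without a test, since their tables were normalized separately. Scripts were tested on simulated data.

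Genes named are Daxx, the 15 largest rises and the falls among called genes with a group mean of at least 50, members of 25 gene lists that were called, had the smallest p or stood first in the list, and up to 5 abundant genes per direction (a library-group mean of at least 1000) whose groups did not overlap. The genes, lists and tests were chosen with earlier results of these data known. Other called genes were named after their values were seen. Positions are from GENCODE on GRCm38 (51625 symbols matched), and upstream sequences from RefSeq (GRCm38.p6, 27 of 39 called genes). Alternatives were other pseudocounts, filters, scalings and tools, sample weights, the 6 libraries alone, a replicate block and leaving out each library.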

Additional observations from a re-analysis of the deposited data

Results flagged for a closer look

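Several genes called in KLS cells 3 w.p.i. moved the other way in the KLS cells whose labels give no time after induction, with every library of one group on the opposite side. The difference between the experiments was not tested, the tables were normalized separately, and the second experiment had 2 against 2 libraries of 6343790 and 22647397 reads (Daxx-KO) and of 3857858 and 3942149 reads (WT). As log2 ratios of group means there, the rises of Dntt (-7.76), Igkv1-110 (-6.12), Arpp21 (-6.08), Rasal1 (-4.8) and Gfra1 (-4.37) had the lowest values. Gm30948 was at -3.6, Emp1 at -3.44, Ntng1 at -3.16, Arhgef3 at -2.53, Il12a at -1.93 and Sorcs2 at -1.3. The values were close to 0 for Plekha7 (-0.37) and Tbxa2r (-0.2). Apoe, a fall at 3 w.p.i., was at 2.05.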

How the results depend on the processing

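With 3 libraries per group the number of genes called depended on single libraries. The 39 genes kept their direction in every alternative that tested them, 18 or 19 per gene. Since they were picked for their difference in these same libraries, the kept direction is no further support. Against 39 genes, DESeq2 called 342, sample weights 87 and the fit without both Daxx-KO 2 and the unnumbered WT, chosen after seeing the data, 124. Leaving out 1 library at a time gave 8 to 137 genes, 4 to 9 repeat subfamilies and 0 to 2 families. For repeats, DESeq2 called 14 subfamilies and 1 family. With library sizes from the gene table, 15 subfamilies and 2 families were called, all values moved by a median of -0.2 and -0.16, and the ERVK family turned to -0.08. The cause of these changes was not tested.

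Daxx, Ntng1, Igkv1-110, Gm26573, Emp1, Arpp21 and Zfp951 were called under every alternative. Ctr9 and Clec2d were called under 17 of 19, Il12a, Laptm4b and Gm30948 under 16 and Dntt under 14. The least stable calls were Dlx3 and Gm6093 (8 of 18), Frmd6 and Dach1 (9 of 19), Rassf9 (10 of 18), and Fbp1, Ankrd6, Gm21989 and Tbxa2r (11 of 19). The log2 fold change of Daxx ranged from -2.57 to -2.26. Among genes not called, direction turned on leaving out 1 library for Atrx (-0.2 to 0.03), Ly6a (-0.43 to 0.2), Mki67 (-0.01 to 0.88), S100a8 (-2.06 to 0.31) and S100a9 (-2.37 to 0.18), where the library that turned them was Daxx-KO 3 or WT 2, Daxx-KO 1 or the unnumbered WT, Daxx-KO 2, and for S100a8 and S100a9 the unnumbered WT. Ly6a was at 0.04 with sample weights and at 0.06 without both libraries. Other values of genes not called passed the threshold in 70 cases for 38 genes.

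The titles number 3 samples per group, but the animal number of the unnumbered WT column is in no title. Libraries with the same number had deviations from the group means that correlated at 0.126, -0.0756 and, with the unnumbered WT as number 3, -0.122. The others correlated at -0.167 to 0.195. With so few libraries this cannot tell whether samples of the same number share more than a number. With the replicate numbers of the titles as a block, 66 genes, 35 subfamilies and 2 families were called, 19 of the 39 genes among them. S100a8 and S100a9 were at 0.64 and 0.63 there. With the replicate block over 3 pairs, added after seeing the data, 17 genes (16 of the 39), 16 subfamilies and 0 families were called.

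Depth was even among the 6 libraries and limits genes with few reads. Folds of genes at 0 in all WT libraries are bounds. Splicing, isoforms and strand were not analysed here.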
